A study of Mus musculus with 93 samples.

Results

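Adcy3, Pde1c and Pde4a encode enzymes that make and break down cyclic AMP in olfactory sensory neurons. The 3 genes were taken by their names in the deposited annotation, out of 32640 gene symbols with a value, and followed in 85 single cells of the mouse olfactory epithelium. Cells were picked by hand from dissociated tissue of C57BL/6 mice, and each library holds the amplified poly(A) RNA of 1 cell. By the labels, 11 of them are Progenitor cells, 9 Precursor cells, 27 Early Immature Neuron cells, 13 Late Immature Neuron cells and 25 Mature Neuron cells, and the labels name no genetic change or treatment for any of them. The series asks how genes of odorant receptors, with Olfr symbols in mice, come to be expressed as sensory neurons develop. No label names an animal or explains how cells were staged, so a stage counts as 1 sample: the values below are descriptions over cells, with no test between stages. Whether these transcriptomes were themselves used to set the stages is not given in the sources used here.

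An odorant that binds its receptor activates the G protein alpha subunit encoded by Gnal, which in turn activates adenylyl cyclase 3, the product of Adcy3, in the cilia of the neuron. The cyclic AMP formed opens a cation channel built from the products of Cnga2, Cnga4 and Cngb1, and calcium enters. Phosphodiesterases end the signal by hydrolysing cyclic AMP. Pde1c encodes a form stimulated by calcium and calmodulin that is found in the cilia of mouse olfactory neurons, and Pde4a a form specific for cyclic AMP that is found in the rest of the cell.

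All values are in FPKM (fragments scaled to transcript length and to the number of mapped fragments), as the authors deposited them. FPKM is given per transcript length, and levels of different genes are set side by side here on that basis only. Annotated transcripts ran from 3890 to 8847 bases for Pde1c and from 2524 to 4653 for Pde4a. Which of them were used, and how evenly they were amplified, was not tested. The level of Adcy3 is also uncertain, since its exons overlap those of another gene, Cenpo. An FPKM of 1 or more counted as detection. At that level, estimated depth put the signal at a median of 27.4 fragments of Adcy3 (2.76 to 48.3 over the libraries), 48.9 of Pde1c and 25.7 of Pde4a in their longest annotated transcripts. Molecules lost before amplification are not seen at any depth. The summed FPKM of a library lay between 528300 and 8734000. Mitochondrial genes held a median of 44.4% of it in Progenitor cells, 37.4% in Precursor cells, 44.1% in Early Immature Neuron cells, 55.6% in Late Immature Neuron cells and 67.0% in Mature Neuron cells. Cell names carry numbers that form 4 ranges, of which only D316 to D434 holds all 5 stages. All 7 markers of mature neurons (Omp, Cnga2, Gnal, Gng13, Stoml3, Cngb1 and Rtp1) were detected in at least 50% of both Late Immature Neuron and Mature Neuron cells. Gucy2d, the defining gene of a class of olfactory neurons that signals through cyclic GMP, was at 0 in every cell. It is 1 of 4 genes listed for that class, of which Car2 was detected in 24 of 85 cells, Pde2a in 11 and Cnga3 in 0. In the Late Immature Neuron stage Car2 was found in 8 of 13 cells, at up to 396 FPKM. In the Mature Neuron stage it was found in 12 of 25. Whether any cell belongs to that class was not tested.

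The 3 genes lie on different chromosomes and each has several annotated starts on mm10. Adcy3 spans 4133104 to 4213525 on the plus strand of chromosome 12, with 5 transcripts. Pde1c spans 56069821 to 56369634 on the minus strand of chromosome 6, with 8 transcripts from 4 starts. Pde4a spans 21165714 to 21213248 on the plus strand of chromosome 9, with 3 transcripts. RefSeq (GRCm38.p6, the assembly behind mm10) gives 8 promoter windows for them, 2 for Adcy3, 3 for Pde1c and 3 for Pde4a, each with 250 bases before and 50 after a start. The outermost RefSeq start of each gene is shown because the 3 genes were low and high in the same stages. An inner start of Pde4a is shown because it was the only 1 of the 8 windows with a match to a motif searched. The motifs, on both strands, were the core bound by Ebf factors (CCCNNGGG), a homeodomain core (TAATTA) and the full cyclic AMP response element (TGACGTCA). Capitals mark the matches.

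Adcy3, outermost start, chr12:4133147-4133446, plus strand: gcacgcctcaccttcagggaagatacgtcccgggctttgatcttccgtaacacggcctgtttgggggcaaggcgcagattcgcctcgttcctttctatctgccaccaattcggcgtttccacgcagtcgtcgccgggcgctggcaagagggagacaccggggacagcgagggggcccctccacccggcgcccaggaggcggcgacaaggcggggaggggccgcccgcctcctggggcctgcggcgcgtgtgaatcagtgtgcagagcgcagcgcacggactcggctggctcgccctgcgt
Pde1c, outermost start, chr6:56369585-56369884, minus strand: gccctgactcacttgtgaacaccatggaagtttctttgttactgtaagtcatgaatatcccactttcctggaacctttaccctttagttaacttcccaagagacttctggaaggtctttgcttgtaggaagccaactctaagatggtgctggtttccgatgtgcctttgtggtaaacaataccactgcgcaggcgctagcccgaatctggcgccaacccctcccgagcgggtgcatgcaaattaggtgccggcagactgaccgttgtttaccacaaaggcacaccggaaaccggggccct
Pde4a, outermost start, chr9:21165464-21165763, plus strand: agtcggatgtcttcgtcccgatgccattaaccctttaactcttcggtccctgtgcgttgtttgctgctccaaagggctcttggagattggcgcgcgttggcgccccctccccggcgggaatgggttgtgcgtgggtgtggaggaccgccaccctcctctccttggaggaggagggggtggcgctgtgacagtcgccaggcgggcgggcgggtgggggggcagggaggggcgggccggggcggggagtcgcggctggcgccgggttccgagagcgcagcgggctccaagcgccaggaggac
Pde4a, inner start, chr9:21183851-21184150, plus strand: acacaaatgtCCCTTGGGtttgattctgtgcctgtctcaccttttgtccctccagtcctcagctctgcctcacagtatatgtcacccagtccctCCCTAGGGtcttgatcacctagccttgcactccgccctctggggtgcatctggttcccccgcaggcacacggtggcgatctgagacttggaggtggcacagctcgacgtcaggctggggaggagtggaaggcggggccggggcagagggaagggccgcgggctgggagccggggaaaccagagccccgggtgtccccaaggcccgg

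The inner Pde4a window held CCCNNGGG at 240 and at 156 bases before its start. Of 32851 RefSeq promoter windows of this length, 13.7% held that core, 5.29% held TAATTA and 1.79% held TGACGTCA. The core was thus found in 1 of the 8 windows of these genes. The outermost windows of Adcy3 and Pde4a were rich in G and C (68.7% and 70%) and held 33 and 29 CG pairs, and that of Pde1c had 51.3% and 11 pairs, against medians of 52.7% and 7 over all windows. A gene total of FPKM does not say which start was used.

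Adcy3 was nearly silent before the neuron stages and was present in every cell of the last 2 stages. It ranged from 0 to 9.56 FPKM in Progenitor cells (median 0), from 0 to 18.4 in Precursor cells (median 0.0674), from 0 to 96.4 in Early Immature Neuron cells (median 1.51), from 19.01 to 354 in Late Immature Neuron cells (median 60.6) and from 5.15 to 430 in Mature Neuron cells (median 89.9). It was detected in 1 of 11 Progenitor cells (D169), 2 of 9 Precursor cells (D178 and D398), 14 of 27 Early Immature Neuron cells (51.9%, exact Clopper-Pearson 95% interval 31.95 to 71.3), and all 13 Late Immature Neuron and all 25 Mature Neuron cells (intervals 75.3 to 100 and 86.3 to 100). Such intervals cover counting error only, and copies made by PCR are not independent molecules. The lowest Late Immature Neuron cell, D205, lay above 25 of the 27 Early Immature Neuron cells, so the stages overlapped in few cells.

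Pde1c was the member most often found early and had a split distribution in the Early Immature Neuron stage. It ranged from 0 to 64.8 FPKM in Progenitor cells (median 0.332, highest in D170), from 0 to 63.7 in Precursor cells (median 0.0392, highest in D179), from 0 to 160 in Early Immature Neuron cells (median 21.8, highest in D371), from 18.7 in D205 to 510 in D234 in Late Immature Neuron cells (median 167) and from 3.30 in D29 to 1171 in D95 in Mature Neuron cells (median 132). It was detected in 5 of 11 Progenitor cells (45.5%, interval 16.7 to 76.6), 2 of 9 Precursor cells, 19 of 27 Early Immature Neuron cells (70.4%, interval 49.8 to 86.2) and every cell of the last 2 stages. Among the Early Immature Neuron cells, 11 were at or below 1.22 FPKM, 16 were at or above 18.5 FPKM and none lay between, a gap looked for after the values were seen. Within that stage the widest empty stretch was narrower for Adcy3 and Pde4a, at 1.28 and 1.46 on the log2(FPKM + 1) scale, against 3.13 for Pde1c. The split of Pde1c was not particular to that stage. Of the 9 Precursor cells, 7 were at or below 0.640 FPKM, 2 were at or above 20.8 and none lay between. No Progenitor cell lay between 1.54 and 11.3 FPKM.

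Pde4a was the member most nearly absent from the first 2 stages and had the highest deposited median of the 3 in the last. It ranged from 0 to 3.92 FPKM in Progenitor cells (median 0, highest in D189), from 0 to 0.722 in Precursor cells (median 0.0911), from 0 to 211 in Early Immature Neuron cells (median 3.42, highest in D168), from 0.908 in D205 to 488.5 in D250 in Late Immature Neuron cells (median 102) and from 5.16 in D329 to 2307 in D55 in Mature Neuron cells (median 238). It was detected in 1 of 11 Progenitor cells, 16 of 27 Early Immature Neuron cells (59.3%, interval 38.8 to 77.6), 12 of 13 Late Immature Neuron cells (92.3%, interval 64.0 to 99.8) and all 25 Mature Neuron cells. In Precursor cells it was detected in 0 of 9, which allows a share of up to 33.6% at this threshold, for counting error only, and 77.8% of them had a value above 0. The highest Precursor cell, D195, thus lay below the lowest cell of either late stage.

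**Figure D1:**
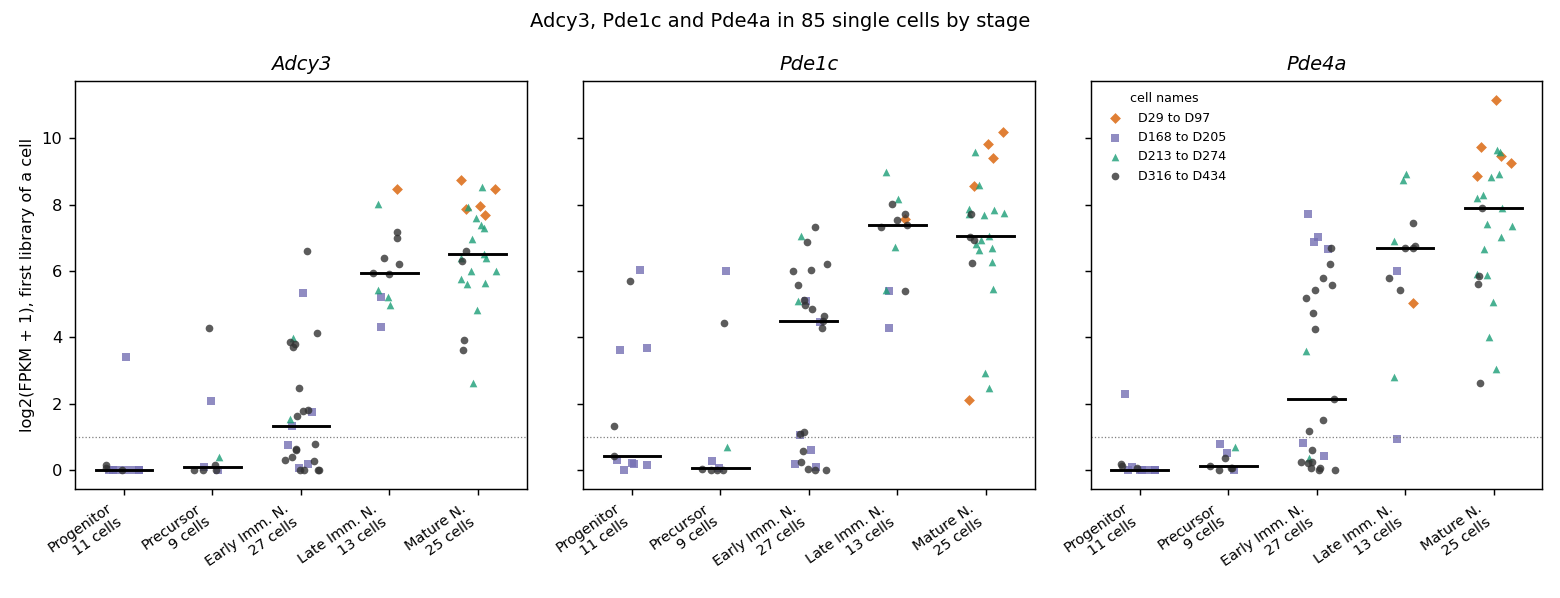
Level of Adcy3, Pde1c and Pde4a in the first library of each of 85 cells, as log2(FPKM + 1) on the vertical axis, by stage. Each point is a cell, its colour and shape give the range of its number, the black line is the median of the stage and the dotted line marks an FPKM of 1. Early Immature Neuron cells spread from 0 to the level of the late stages, and the Mature Neuron cells D29 to D97 (orange diamonds) are all above the median of their stage in Adcy3 and Pde4a.

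All 3 members were called higher in Late Immature Neuron cells than in the Early Immature Neuron stage, and for Adcy3 and Pde1c this was the largest difference between neighbouring stages in the means over all cells. Differences are of mean log2(FPKM + 1), the later stage minus the earlier, and genes entered it when 50% or more of the cells in one of both stages had them. It was called higher or lower at a difference of at least 1, which is a size and not a test. Adcy3 averaged 6.18 ± 1.22 on this scale in Late Immature Neuron cells and 1.77 ± 1.85 in Early Immature Neuron cells (SD, n = 13 and 27 cells), a difference of 4.41. Pde1c averaged 6.92 ± 1.37 in Late Immature Neuron cells and 3.45 ± 2.65 in Early Immature Neuron cells, a difference of 3.47. Pde4a averaged 6.02 ± 2.19 in Late Immature Neuron cells and 3.10 ± 2.84 in Early Immature Neuron cells, a difference of 2.91, close to its 2.81 in the step before. Of the 4138 genes compared, 32.6% were higher and 16.1% lower, and the members stood at ranks 28, 85 and 165 from the top. Within number ranges the difference was 3.20, 3.15 and 4.71 for Adcy3 (in D168 to D205, then D213 to D274, then D316 to D434), and 2.94, 1.24 and 3.58 for Pde1c. For Pde4a it was 4.88 in D213 to D274 and 3.82 in D316 to D434, but -1.46 in D168 to D205, where the 2 Late Immature Neuron cells D199 and D205 had 63.2 and 0.908 FPKM and the 6 Early Immature Neuron cells had a median of 109 FPKM.

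Both phosphodiesterases were already higher in Early Immature Neuron cells than in Precursor cells, while Adcy3 stood just under the limit. Adcy3, Pde1c and Pde4a were detected in 2, 2 and 0 of 9 Precursor cells, so they entered through the Early Immature Neuron stage alone. Entry of this kind makes a lower call unlikely, so the direction by itself shows little. The difference was 2.17 for Pde1c, with a mean of 3.45 ± 2.65 in Early Immature Neuron cells and 1.28 ± 2.28 in Precursor cells (SD, n = 27 and 9 cells). It was 2.81 for Pde4a, with 3.10 ± 2.84 in Early Immature Neuron cells and 0.29 ± 0.31 in Precursor cells. It was 0.99 for Adcy3, with 1.77 ± 1.85 in Early Immature Neuron cells and 0.78 ± 1.47 in Precursor cells, and 1.43 without the Precursor cell D398, whose 18.4 FPKM was the highest of its stage. Of the 4001 genes compared, 22% were higher and 28.1% lower. The Pde1c difference did not hold in every range: it was -0.20 in D168 to D205, where the Precursor cell D179 had 63.7 FPKM, 5.37 in D213 to D274 and 2.76 in D316 to D434. For Pde4a it was 4.50, 1.27 and 2.52 in the same ranges. With a pseudocount of 10 in place of 1 the Pde1c difference fell short of the limit, at 0.98.

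Between Precursor and Progenitor cells no member reached the share of cells needed for a comparison, so 0 of 3 were compared, where 20.1% of 4316 genes were higher and 21.6% lower. The differences of the means were 0.45 for Adcy3, -0.69 for Pde1c and 0.04 for Pde4a. Of the Progenitor cells, 8 with S100a9, a gene of neutrophils, at an FPKM of at least 100 all carry numbers from D168 to D205. Without them and the Precursor cell D179, which had it too, the Pde1c difference was -1.802 with 8 Precursor and 3 Progenitor cells. Within number ranges it was 0.33 in D168 to D205, with 3 Precursor and 8 Progenitor cells, and -1.595 in D316 to D434, with 5 and 3, so its direction was not the same in both. S100a9 is 1 of 7 listed markers of blood and immune cells. In Progenitor cells S100a8 and Lyz2 were each detected in 8 of 11 cells, and Ptprc, Hbb-bs, Hba-a1 and C1qa in 0. The part of such transcripts in the Progenitor values was not tested.

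In the means over all cells, Mature Neuron cells were called different from Late Immature Neuron cells in Pde4a alone, and that difference was not stable. Pde4a averaged 7.37 ± 2.19 in Mature Neuron cells, against 6.02 ± 2.19 in Late Immature Neuron cells (SD, n = 25 and 13 cells), a difference of 1.36. The differences of 0.33 for Adcy3 and 0.13 for Pde1c stayed under the limit. Among 3831 genes compared, 4.57% were higher and 32.7% lower. Without the Late Immature Neuron cell D205 the Pde4a difference was 0.93, under the limit. Within number ranges it was 4.66 in D29 to D97, which holds only 1 Late Immature Neuron cell (D77), 0.26 in D213 to D274 and -0.97 in D316 to D434. In the same ranges the difference was -0.32, 0.44 and -1.33 for Adcy3 and 0.46, -0.55 and -0.25 for Pde1c. Adcy3 thus passed the limit in the lower direction in D316 to D434, with 4 Mature Neuron and 6 Late Immature Neuron cells. When the nuclear genes of each library were scaled to the same sum, the difference was 0.69 for Pde4a, -0.38 for Adcy3 and -0.57 for Pde1c. That scaling moved the median of all genes compared by -0.59, so relative to the median each member was higher on both scales, and 1.59% of genes were then called higher and 56.7% lower. On the deposited scale the median gene differed by -0.58.

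Across all stages, the 3 members were higher in Mature Neuron cells than in Progenitor cells, by 6.18 for Adcy3, 5.08 for Pde1c and 7.12 for Pde4a. They were detected in 1, 5 and 1 of 11 Progenitor cells and so entered through the Mature Neuron stage alone, which makes a lower call unlikely. Of 4463 genes compared, 25.2% were higher and 46.3% lower. With the nuclear genes scaled to the same sum the differences were 6.36, 4.80 and 7.32, while 21.1% of genes were higher and 58.4% lower. Only the range D316 to D434 holds both stages, and within it the differences were 5.05, 4.49 and 5.37 with 4 Mature Neuron and 3 Progenitor cells.

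Markers of supporting cells differed among themselves in the Mature Neuron libraries. The summed level of 7 sustentacular cell markers ran from 0.314 to 2446 FPKM there (median 318.2), with all 7 detected in at least 1 cell, from 0.303 to 4420 in Late Immature Neuron cells (median 22.1), from 0 to 3994 in Early Immature Neuron cells (median 3.44) and from 0.257 to 598 in Progenitor cells (median 162). Cbr2 was detected in 20 of 25 Mature Neuron cells, Cyp2a5 in 14, Cyp2g1 in 13, Sec14l3 in 10, and the keratin genes Krt18 and Krt8 in 5 and 4, with Ermn in 1. Against Progenitor cells, Cbr2 (1.36) and Cyp2g1 (1.26) were called higher and Krt8 (-4.22) and Krt18 (-2.46) lower. Krt8 and Krt18, each detected in 10 of 11 Progenitor cells, entered through that stage alone, which makes a higher call unlikely. Of all genes compared there, 25.2% were higher and 46.3% lower. The 14 Mature Neuron cells with Cbr2 at an FPKM of at least 100 had a median of 161 FPKM of Adcy3, 168.8 of Pde1c and 227 of Pde4a, against 83.6, 130 and 238 in the other 11. The 3 with Cyp2g1 at that level had medians of 63.7, 214 and 162 FPKM, against 93.5, 131 and 238 in the other 22. Without cells with Cbr2 or Cyp2g1 at that level, the differences of Mature Neuron against Late Immature Neuron cells were -0.29, -0.16 and 1.68. The part of such RNA in the members' values was not tested.

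No Progenitor or Precursor cell held more than 1 member: 4 of 11 Progenitor and 5 of 9 Precursor cells held none, and each of the others held 1. Of the 27 Early Immature Neuron cells, 8 held all 3, 8 held 2, 9 held 1 and 2 held none. Both phosphodiesterases were detected in 11 of the 27, Pde1c without Pde4a in 8, Pde4a without Pde1c in 5 and no phosphodiesterase in 3. A phosphodiesterase was detected without Adcy3 in 11 cells, while Adcy3 was found with no phosphodiesterase in 1 cell, D378. These counts set 1 gene against either of 2, and whether they go beyond the detection rates of the genes was not tested. Of the 11, D192, D317, D417 and D434 had the overlapping gene Cenpo at 23.3 FPKM or more, and the rest had 3.25 or less. The absence of Adcy3 in those with high Cenpo is thus uncertain. In the Late Immature Neuron stage 12 of 13 cells held all 3, with D205 lacking Pde4a, and in the Mature Neuron stage 25 of 25 did. The members thus differed in the cells of the first neuron stage and were found together in all but 1 cell of the last 2.

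Early Immature Neuron cells with all 3 members also had more RNA of mature neuron genes than those with 1. Omp, the olfactory marker protein gene, had a median of 937 FPKM in the 8 cells with 3 members (4.29 to 6224), 89.4 in the 8 with 2, 0 in the 9 with 1 (0 to 1337) and 12.6 in the 2 with none. Stoml3, which encodes a stomatin-like protein of olfactory cilia, had medians of 1282, 29.97, 0.0597 and 89.9 FPKM in the same groups. Gng8, a G protein gamma subunit of immature neurons, had medians of 17.6, 34.6, 99.8 and 27.2 FPKM. Other genes of immature neurons did not follow that order: Gnao1, a G protein alpha subunit, had 202.5, 128, 44.9 and 55.2, and Gap43, a growth cone protein, had 500, 234.6, 724 and 132. These groups were formed from the members' own values in the same libraries, the ranges overlap, and the groups also differed in the median number of genes detected, 4528, 3754.5, 4041 and 3938.

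The top odorant receptor of a cell, its Olfr gene with the highest FPKM, was set beside the members cell by cell. Its level reached 100 FPKM in 24 of 27 Early Immature Neuron cells, in 12 of 13 Late Immature Neuron cells and in 24 of 25 Mature Neuron cells. In the 24 Early Immature Neuron cells with such a receptor, Adcy3 was detected in 13, Pde1c in 16 and Pde4a in 15. In the 12 Late Immature Neuron and the 24 Mature Neuron cells with one, all 3 members were detected. High receptor RNA was thus present in 11 Early Immature Neuron cells in which Adcy3 was under an FPKM of 1. Of these, D192, D197, D317, D417 and D434 had the overlapping gene Cenpo at 23.3 FPKM or more, so the absence of Adcy3 in them is uncertain.

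The reverse case, members with little receptor RNA, was seen in 5 neuron cells. The Mature Neuron cell D329 had a top receptor of 7.85 FPKM with 14.2 FPKM of Adcy3, 74.9 of Pde1c and 5.16 of Pde4a, all below the medians of its stage. The Late Immature Neuron cell D205 had a top receptor of 9.03 FPKM and the lowest level of its stage in each member, with 2724 FPKM of Omp. Among Early Immature Neuron cells, D215 had a top receptor of 53.6 FPKM with 14.8 FPKM of Adcy3 and 132 of Pde1c, D347 had 3.39 FPKM with 18.5 of Pde1c and 73.6 of Pde4a, and D357 had 15.03 FPKM with 1.22 of Pde1c as its only detected member.

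Within the neuron stages Spearman's rho of the members with the top receptor lay between 0.119 and 0.498 on the deposited values. In the 27 Early Immature Neuron cells Spearman's rho was 0.119 for Adcy3, 0.18 for Pde1c and 0.136 for Pde4a, with Pearson's r of 0.0293, 0.144 and 0.183 on log2(FPKM + 1). In the 13 Late Immature Neuron cells rho was 0.258, 0.374 and 0.269 (r 0.491, 0.53 and 0.541). In the 25 Mature Neuron cells it was 0.498, 0.344 and 0.372 (r 0.501, 0.192 and 0.469), and 0.239, 0.205 and 0.0869 when the nuclear genes of each library were scaled to the same sum. Without the 2 cells farthest from the median top receptor, r was 0.496, 0.338 and 0.255 among Mature Neuron cells, and for Late Immature Neuron cells it was 0.456, 0.415 and 0.161. Both values of a point come from the same library and so share its depth and scaling, and the cells of a stage come from several number ranges. No value over the stages together is given.

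**Figure D2:**
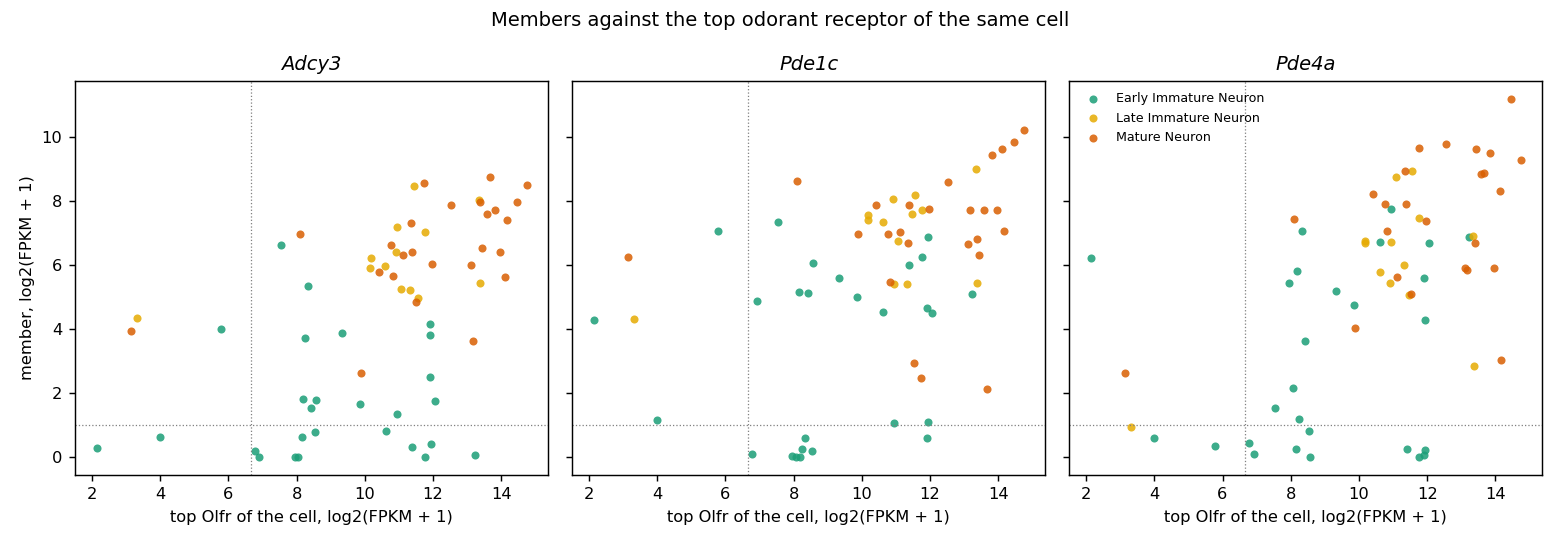
Level of each member against that of the top Olfr gene of the same cell, both as log2(FPKM + 1), for the 27 Early Immature Neuron cells, 13 Late Immature Neuron cells and 25 Mature Neuron cells. Dotted lines mark a top receptor at an FPKM of 100 and a member at an FPKM of 1. Early Immature Neuron cells to the right of the vertical line are found both below and above the horizontal one, and the late cells to the right of it are all above.

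The authors' order of cells, a score named Pseudotime without a unit, gave a description within stages. Over 25 Mature Neuron cells (scores 36.3 to 51.4) rho with that score was 0.635 for Adcy3, 0.0977 for Pde1c and 0.522 for Pde4a. Over 13 Late Immature Neuron cells it was 0.22, 0.484 and 0.549, and over 25 Early Immature Neuron cells 0.0173, 0.192 and 0.286. Which genes entered the score is not given in the sources used here, so the members may be among them.

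Cyclase and phosphodiesterases were compared within cells. In Mature Neuron cells the log2 ratio of Adcy3 to Pde1c FPKM had a median of -0.73 and ran from -4.58 in D213 to 7.03 in D29, with Adcy3 the higher in 8 of 25 cells. In Late Immature Neuron cells it had a median of -0.98 (-3.24 to 1.796), with Adcy3 the higher in 4 of 13. The ratio of Adcy3 to Pde4a had a median of -1.29 in Mature Neuron cells (-3.23 in D55 to 4.52 in D240) and of -0.14 in the 12 Late Immature Neuron cells with both (-4.01 to 3.46). Among the 10 Early Immature Neuron cells with Adcy3 and Pde1c the median was -3.16, with Adcy3 the higher in 1, and among the 11 with Adcy3 and Pde4a it was -1.98, with Adcy3 the higher in 2. Pde4a was the highest of the 3 in 13 of 25 Mature Neuron cells and Pde1c in 10. In Late Immature Neuron cells Pde1c was the highest in 6 of 13, Adcy3 in 4 and Pde4a in 3. Ranked among all genes detected in the same cell, the members stood at median percentiles of 71.9 (Adcy3), 79.2 (Pde1c) and 82.6 (Pde4a) in Mature Neuron cells. In the Early Immature Neuron cells that held them, the percentiles were 23.8, 54.3 and 61. These orders rest on Adcy3 as deposited, whose level is uncertain beside Cenpo. With the Cenpo FPKM added to that of Adcy3, chosen after seeing the data, the sum was the highest in 15 of 25 Mature Neuron cells and in 9 of 13 Late Immature Neuron cells. The median log2 ratio was then 1.17 to Pde1c and 0.90 to Pde4a in Mature Neuron cells, so which enzyme stood higher was not settled.

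In 3 Mature Neuron cells Pde1c was low. Its lowest values there, 3.30 FPKM in D29, 4.53 in D265 and 6.67 in D262, stood beside 430, 373.4 and 27.4 FPKM of Adcy3 and 468, 795 and 32.6 of Pde4a. D29 and D265 thus had the highest Adcy3 levels of the stage with almost no Pde1c. Over the 25 cells rho between Adcy3 and Pde4a was 0.678, between Adcy3 and Pde1c 0.108, and between Pde1c and Pde4a 0.307. Over the 13 Late Immature Neuron cells it was 0.044, 0.467 and 0.462 for the same pairs, so the closest pair was not the same in both stages. The highest cell exceeded the lowest 83.5-fold for Adcy3, 355-fold for Pde1c and 447-fold for Pde4a among Mature Neuron cells. All 25 cells held every member at an FPKM of at least 1, and D240 and D329 were the only ones with Pde4a under 10.

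**Figure D3:**
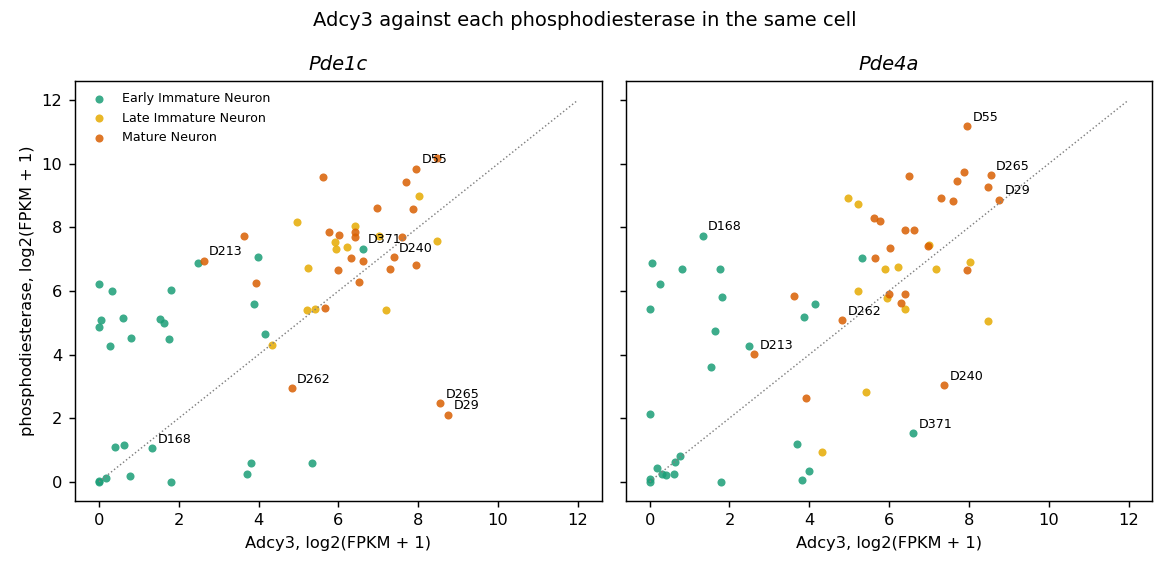
Level of Pde1c (left) and Pde4a (right) against Adcy3 in the same cell, as log2(FPKM + 1), for the cells of the 3 neuron stages. The dotted line marks equal levels. The Mature Neuron cells D29 and D265 lie far below it in the left panel and close to or above it in the right one, and most Mature Neuron cells lie above it in both.

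The labels give 8 cells a second, technical library, and its values often lay far from those of the first. The absolute difference of log2(FPKM + 1) between both libraries of a cell had a median of 1.62 for Adcy3 (0.137 to 4.67), 0.42 for Pde1c (0.105 to 4.10) and 1.603 for Pde4a (0.0389 to 5.59). Detection was the same in both libraries for 7 of 8 cells in Adcy3 and for 8 of 8 in the others. In the Early Immature Neuron cell D200 Adcy3 had 0.584 FPKM in the second library and 39.2 in the first, and Pde4a had 1.73 and 131. In the Mature Neuron cell D243 Pde4a had 1.93 FPKM in the second library and 58.5 in the first, while Pde1c had 92.1 and 99.5. In the Late Immature Neuron cell D233 all members were higher in the second library, with 194.5 and 41.9 FPKM of Adcy3, 734 and 41.8 of Pde1c and 103.5 and 6.07 of Pde4a. The second library had the same top receptor as the first in 5 of 8 cells, and over 5049 genes the first library was its closest match among cells of the stage in 3 of 8. The top receptor was another in D187, D200 and D230, and D200 gave the largest differences of Adcy3 and Pde4a. These values do not settle whether both libraries of those cell names hold the same cell.

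**Figure D4:**
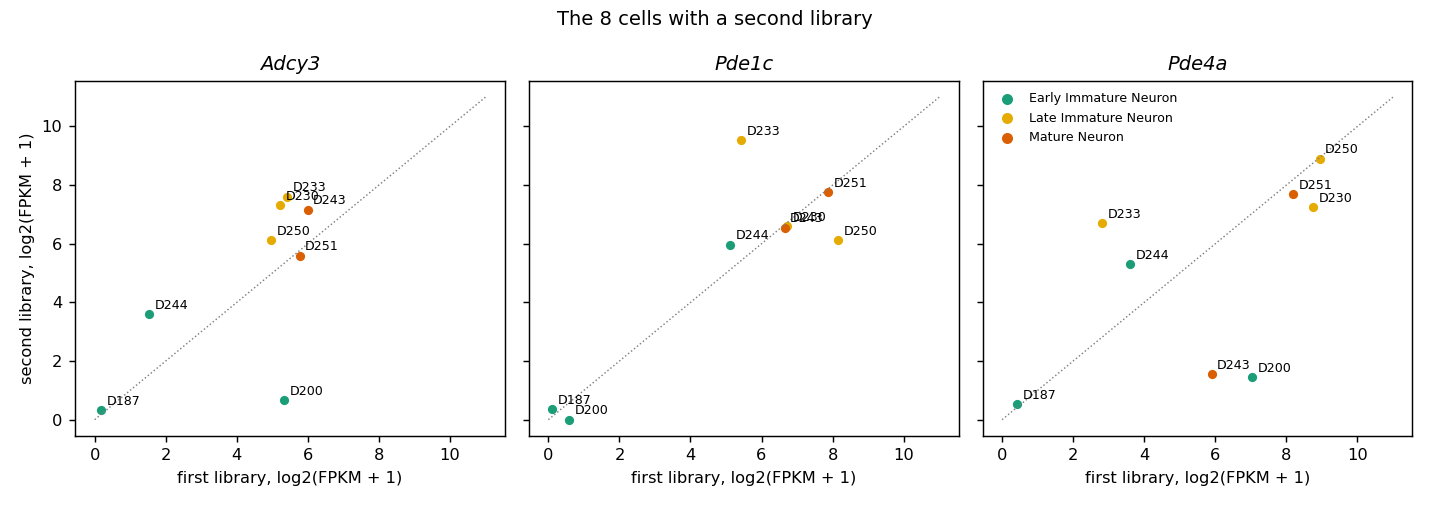
Level in the second against the first library of the 8 cells with both, as log2(FPKM + 1), coloured by stage. The dotted line marks equal levels. D200 and D243 lie far below the line for Pde4a and D233 above it for all 3 members, while D187 and D251 lie close to it throughout.

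Adcy3 carries a further limit, since its exons overlap those of Cenpo, a gene for a centromere protein on the opposite strand. Cenpo spans 4197822 to 4234294 on chromosome 12, and 1221 of the 5364 exonic bases of Adcy3 (22.8%) are also exonic in Cenpo. The library kit named in the labels keeps no strand, so reads from these bases cannot be assigned by strand and levels of both genes are uncertain. Cenpo ranged from 0 to 103 FPKM in Progenitor cells (median 0.379), from 0.0258 to 82.8 in Precursor cells (median 0.741), from 0.0675 to 123 in Early Immature Neuron cells (median 20.4), from 75.9 to 660 in Late Immature Neuron cells (median 276) and from 10.5 to 2114 in Mature Neuron cells (median 241). It was above Adcy3 in all 13 Late Immature Neuron and in 23 of 25 Mature Neuron cells. In 5 Early Immature Neuron cells Cenpo was at least 10 FPKM with Adcy3 under 1: D192 had 95.2 and 0.0385, D317 had 40.8 and 0.526, D417 had 37.3 and 0.324, D197 had 25.2 and 0.703, and D434 had 23.3 and 0. The sum of both genes, chosen after seeing the data, reached an FPKM of 1 in 21 of 27 Early Immature Neuron cells, against 14 for Adcy3 alone. On that sum the difference of Early Immature Neuron against Precursor cells was 1.63, and that of Late Immature Neuron against Early Immature Neuron cells 4.26. No exon of another annotated gene overlapped those of Pde1c or Pde4a.

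The other adenylyl cyclases were scarce. None of the 9 other adenylyl cyclases was detected in enough cells to enter any comparison. Adcy10, the soluble cyclase, was detected in 2 of 25 Mature Neuron cells (up to 285 FPKM), Adcy1 in 4 of 85 cells, Adcy6 in 2, and Adcy2 and Adcy7 in 1 each. Adcy4, Adcy5, Adcy8 and Adcy9 were at 0 in every cell. In Mature Neuron cells the median of each of these 9 was 0 FPKM, against 89.9 for Adcy3. A median of 0 here says only that a gene was not detected at this depth.

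Of the 14 other phosphodiesterases that act on cyclic AMP, only Pde7a could be compared, and it was lower in the later stage wherever it was. Pde7a, a form specific for cyclic AMP, was detected in 10 of 11 Progenitor cells (median 19.5 FPKM), 5 of 9 Precursor cells (median 8.03), 1 of 27 Early Immature Neuron cells, 4 of 13 Late Immature Neuron cells and 2 of 25 Mature Neuron cells. It was called lower in Precursor against Progenitor cells (-1.64), Early Immature Neuron against Precursor cells (-2.38) and Mature Neuron against Progenitor cells (-3.41). Of all genes compared there, 21.6%, 28.1% and 46.3% were lower. Pde7a entered the last 2 of these comparisons through the earlier stage alone, which makes a higher call unlikely. Late against Early Immature Neuron cells could not be compared in Pde7a, and there its mean was higher in the later stage. Pde8a was detected in 13 of 27 Early Immature Neuron cells, 2 of 13 Late Immature Neuron cells and 3 of 25 Mature Neuron cells. Pde7b was detected in 12 of 25 Mature Neuron cells, 3 of 13 Late Immature Neuron and 1 of 27 Early Immature Neuron cells. Pde2a, found in neurons that signal through cyclic GMP, was detected in 5 of 27 Early Immature Neuron cells, 2 of 13 Late Immature Neuron cells and 1 of 25 Mature Neuron cells. The 5 phosphodiesterases of cyclic GMP on the list (Pde5a, Pde6a, Pde6b, Pde6c and Pde9a) entered no comparison, and none was detected in more than 2 cells of a stage.

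Most genes that act beside the members in the odorant response also differed between Early Immature Neuron cells and the stages next to it. Of 12 transduction partners, 9 could be compared between Early Immature Neuron and Precursor cells and 9 were called higher, with a median difference of 3.41, where 22% of all genes compared were higher and 28.1% lower. Cnga2, Ano2, Omp and Stoml3, detected in 3, 0, 3 and 3 of 9 Precursor cells, entered through the Early Immature Neuron stage alone. A gene that enters in this way can hardly be called lower. Between Late Immature Neuron and Early Immature Neuron cells 11 of 12 were called higher (median 3.77, against 0.41 over all genes compared, of which 32.6% were higher), and the 1 other was Slc12a2, a chloride importer, at -0.49. Cnga4, Cngb1 and Slc24a4, detected in 11, 11 and 2 of 27 Early Immature Neuron cells, entered there through the later stage alone. Between Mature Neuron and Late Immature Neuron cells 0 of 12 were called in either direction (median 0.47), where 4.57% of all genes compared were higher and 32.7% lower. Gnb1, a G protein beta subunit, had medians of 1667 FPKM in Mature Neuron and 1242 in Late Immature Neuron cells, and Gng13, a gamma subunit, 1296 and 1024. Omp had 6257 and 4584, and Stoml3 had 4712 and 4272. The other 8 partners had medians between 0.244 and 665 FPKM in Mature Neuron cells, a span that includes those of the 3 members. Of partners chosen here after their values were seen, Adcy3 had a lower median than Cnga2 (665 FPKM) and Gnal (604), and a median close to those of Cngb1 (100) and Ano2 (96.0), the gene of a calcium-gated chloride channel.

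Among 10 calcium regulators in the table, 6 could be compared between Late and Early Immature Neuron cells, of which 3 were called higher and 2 lower, where 32.6% of all genes compared were higher and 16.1% lower. Calm2 and Calm3, which encode calmodulin, the activator of Pde1c, were detected in all 85 cells, and Calm2 had medians of 3961 FPKM in Mature Neuron and 1048 in Progenitor cells. Camk2d, a calcium and calmodulin kinase, was called higher in Early Immature Neuron against Precursor cells (3.44) and in Late against Early Immature Neuron cells (2.26). Detected in 3 of 9 Precursor cells, it entered the first through the Early Immature Neuron stage alone, where 22% of all genes compared were higher. The 2 genes lower in Late against Early Immature Neuron cells were Camk2g, another such kinase (-2.52), and Arrb2 (-1.33). They were detected in 4 and 6 of 13 Late Immature Neuron cells and entered through the earlier stage alone. Of the 12 cyclic AMP effectors, 7 could be compared between Late and Early Immature Neuron cells. Of these 2 were called higher and 1 lower, shares near the 32.6% and 16.1% of all genes compared. The higher ones were Pkia (2.12) and Pkib (3.99), inhibitors of protein kinase A, and the lower one was Prkar1a (-1.09). That gene, for a regulatory subunit of protein kinase A, had medians of 84.99 FPKM in Mature Neuron and 54.9 in Progenitor cells, and Prkaca, a catalytic subunit, 55.3 and 11.6. Pkig, another inhibitor, had 6.32 in Mature Neuron and 84.4 in Progenitor cells. The early G protein subunit Gng8 had medians of 0 FPKM in Mature Neuron cells, 1.38 in Late Immature Neuron cells and 29.2 in Early Immature Neuron cells. Of the 5 subunits on that list, 1 was called higher and 4 lower in Mature Neuron against Progenitor cells, where 25.2% and 46.3% of all genes compared were. Each entered through 1 stage alone, which nearly fixes its direction. The higher one, Gnao1 (3.17), was detected in 22 of 25 Mature Neuron cells, at a median of 23.5 FPKM.

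**Figure D5:**
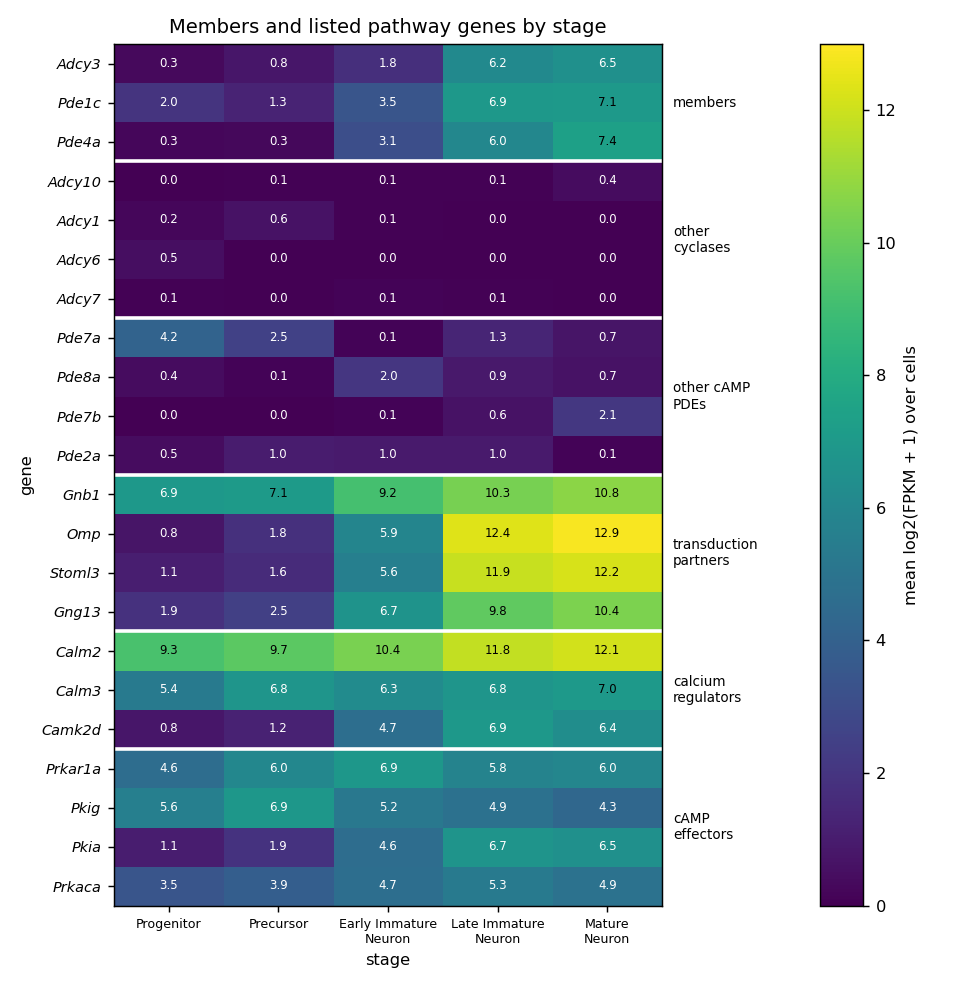
Mean log2(FPKM + 1) over the cells of each stage (columns, 5 stages) for the 3 members and genes of high mean, up to 4 from each of 5 lists (rows). The value is printed in each field and also given by the colour. The members, Omp, Stoml3 and Gng13 are low in the first 2 columns and high in the last 2, Gnb1 is high in all columns, the other cyclases are near 0 in all columns, and Pde7a is highest in Progenitor cells.

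The genes most like each member over all 85 cells were mostly of the mature neuron. Likeness was Spearman's rho over 85 cells among 6505 genes detected in at least 20% of them, and it largely follows the stages. For Adcy3 the closest included Omp (0.862), Stoml3 (0.85), the overlapping Cenpo (0.85) and Umodl1 (0.848). For Pde1c they included Fetub (0.732), Ric8b (0.725), Calm2 (0.722) and Omp (0.717), all lower than the values of Adcy3. For Pde4a they included Stoml3 (0.805), Mppe1 (0.803), Gng13 (0.798) and Ctxn3 (0.798). Among the members, Pde4a ranked 21 and Pde1c 75 in the list of Adcy3 (0.767 and 0.669), and Pde1c and Pde4a had 0.576 with each other. Within stages the values varied. Adcy3 had 0.387 with Omp over Early Immature Neuron cells, 0.753 over Late Immature Neuron cells and 0.725 over Mature Neuron cells, and 0.332, 0.659 and 0.75 with Stoml3. Pde1c had 0.466, 0.676 and 0.362 with Fetub, and 0.0791, 0.297 and 0.711 with Ric8b, which encodes a partner of the Gnal product. Pde4a had 0.387, 0.192 and 0.713 with Stoml3, and 0.508, -0.132 and 0.537 with Mppe1.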

How the data were processed

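The authors deposited 1 table of FPKM values per gene for 93 single-cell libraries of 85 cells, with 8 cells sequenced from a second library. The submitters' processing notes name TopHat2 2.0.14, Cufflinks 2.2.1, cutadapt 1.2.1, Trim Galore, CASAVA 1.8.2 and the build mm10. Settings and scaling across libraries were not given in those notes. Per the file headers, a second deposited table holds FPKM of receptors and the authors' Pseudotime, a score without a unit, used here only within stages.

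Stages were taken from the labels. Only first libraries were used, except for the repeats. Of 32975 entries, 107 control sequences were left out; the entry with the highest mean stood for a symbol, and for Olfr the highest entry per library. Cufflinks' FPKM give no counts, so no count test was used, and with 1 sample per stage no test was made. Differences are of mean log2(FPKM + 1) for genes detected (FPKM of at least 1) in 50% or more of the cells of one stage or the other, called at 1. Depth was estimated from the spacing of low FPKM values of 2167 single-exon genes; it ran from 0.556 to 9.73 fragments per FPKM and kilobase. Scripts were checked on simulated data and ran in Python 3.11.15 with pandas 2.3.3, numpy 2.4.6 and scipy 1.17.1. Alternatives were the scaling, pseudocount, number range, median, filter, detection limit, left-out cells and second libraries.

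The members and gene lists were chosen with earlier results of these data known. Of each list the 4 genes with the highest mean were named, and for each member the 5 genes of highest rho, leaving out Olfr, Gm, Rik, ribosomal protein and mitochondrial genes; cells were named where they held an extreme value or lacked a receptor at an FPKM of 100. Some genes that this rule names are not reported here. Other genes and cells named were chosen after their values were seen.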

Additional observations from a re-analysis of the deposited data

Results flagged for a closer look

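In the Precursor stage the Adcy3 level of D398 stood apart from the other 8 cells, at 4.27 on the log2(FPKM + 1) scale (18.4 FPKM). Its gap to the next cell was 0.512 of the range of the stage, above the critical value of Dixon's test for 9 values. Between both libraries of the same cell, D200 stood apart in Adcy3, with a log2 difference of -4.67 (second minus first), and D233 in Pde1c, with 4.1. Their gaps were 0.654 and 0.529 of the range over 8 cells; both are also above the critical value. The rule was applied to 6 groups of values, and chance alone picks out about 1 in 20 groups if values are normally distributed. In the Precursor stage 4 of 9 Adcy3 values were 0, so that rate need not hold there. No cause was tested.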

How the results depend on the processing

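No paired analysis was possible because the results come from no test. The difference of Mature Neuron against Late Immature Neuron cells in Pde4a turned to -0.97 within D316 to D434, where that of Adcy3 was -1.33 and that of Mature Neuron against Progenitor cells in Pde4a was 5.37. A pseudocount of 10 gave 2.52 for Adcy3 in Late against Early Immature Neuron cells, and for Mature Neuron against Progenitor cells 3.32 for Adcy3 and 4.201 for Pde4a, while a pseudocount of 0.1 gave 9.06 and 9.87. The Pde4a call in Mature Neuron against Late Immature Neuron cells was also lost with second libraries (0.98); leaving out each cell in turn gave 0.93 to 1.602. The Adcy3 difference of Early Immature Neuron against Precursor cells passed the limit with nuclear scaling (1.35), a pseudocount of 0.1 (2.06), medians (1.24) and without cells with Cbr2 or Cyp2g1 (1.12), and ran from 0.81 without D371 to 1.43 without D398. Nuclear scaling moved the median of all genes by -0.10, 0.10 and -0.64 for Early Immature Neuron against Precursor, Late against Early Immature Neuron and Mature Neuron against Progenitor cells.

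Counting any FPKM above 0 as detected gave 85.2% of Early Immature Neuron cells for Adcy3 and 92.6% for both Pde1c and Pde4a, 90.9% of Progenitor cells for Pde1c and 45.5% for Pde4a, 66.7% and 77.8% of Precursor cells, and 100% of Late Immature Neuron cells for Pde4a. At an FPKM of 10 it gave 25.9% of Early Immature Neuron cells for Adcy3 and 0% of Progenitor cells for Adcy3 and Pde4a. The sum with Cenpo gave 77.8% of Early Immature Neuron cells. That sum gave median log2 ratios to Pde1c of -0.0767 in Early and 1.45 in Late Immature Neuron cells, and to Pde4a of 0.90 in Mature Neuron cells, against 2.12 in the Late Immature Neuron stage. Spearman's correlation with the top receptor was 0.239 for Adcy3 and 0.0869 for Pde4a in Mature Neuron cells with nuclear scaling, and -0.0461 for Pde1c in Early Immature Neuron cells against the summed receptors. Within D316 to D434 it was 0.886 for Adcy3 over 6 Late Immature Neuron cells and -0.171 for Pde4a in Early Immature Neuron cells. Without the 2 farthest Precursor cells it was 0.252 for Adcy3 and 0.829 for Pde4a. With no filter, 1380 genes were higher and 1591 lower in Precursor against Progenitor cells, 1651 and 1743 in Early Immature Neuron against Precursor cells, and 1846 and 3164 in Mature Neuron against Progenitor cells; 1106 were lower in Late against Early Immature Neuron cells. The causes were not tested.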
